A study of Mus musculus with 10 samples.

Results

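Amino acid transporter genes were taken as every gene in the count files whose symbol belongs to the families Slc1, Slc3, Slc7, Slc36, Slc38 or Slc43, which gave 42 of 24538 genes. RNA was sequenced from cells sorted by flow cytometry as CD31+/CD45- in 10 libraries, 5 from lung metastases and 5 from normal lung. All mice were C57BL6/J wild type with an age tag of 8 to 10 weeks. The metastases came from a syngeneic mouse mammary tumour line, E0771-LG, given by tail vein to females of 6 to 8 weeks. Lesions below 1 mm in diameter were dissected and combined from 2 to 4 mice, whereas pooling is not stated for normal lung. All tissue was digested for 30 min at 37 °C in a buffer that held the transcription inhibitors alpha-amanitin and actinomycin D. The labels do not say that replicates of a group came from separate animals, so p-values measure only the spread between these libraries.

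Cells import and exchange amino acids through membrane carriers that differ in substrate and driving force. SLC1 proteins move glutamate, aspartate or small neutral amino acids. SLC7 proteins either carry cationic amino acids alone or act as light chains that need an SLC3 heavy chain to reach the membrane. SLC38 proteins carry glutamine and other neutral amino acids, SLC36 proteins couple small amino acids to protons, and SLC43 began as a family of facilitated neutral amino acid carriers. In endothelial cells, glutamine, leucine and arginine feed biosynthesis, growth signalling and nitric oxide production.

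Levels are given as CPM (counts-per-million) on libraries scaled by TMM (trimmed mean of M values), and, between genes, as the authors' FPKM, which also divides by transcript length. Libraries held 21.7 to 54.3 M gene counts in metastases and 41.0 to 79.7 M in normal lung. The gate was checked against lists of marker genes. Of 19 pan-endothelial genes 16 were lower in metastases and 0 higher, with a summed level of 1168 to 7432 CPM in metastases against 12582 to 25376 CPM in normal lung. Of 12 macrophage and leukocyte markers 6 were higher, with sums of 1045 to 1997 CPM in metastases against 70.9 to 237 CPM in normal lung. Of 12 fibroblast markers 7 were higher, with sums of 396 to 945 CPM in metastases against 6.67 to 79.0 CPM in normal lung, and Fbln1 was at 0 in metastases. Of 12 mammary epithelial markers 1, the keratin gene Krt8, was higher, with sums of 9.69 to 54.1 CPM in metastases against 1.15 to 13.2 CPM in normal lung. Krt5 was at 0 in all libraries, and Elf5 and Cldn4 were at 0 in metastases. The sums were 971 to 14213 CPM in metastases against 210 to 1537 CPM in normal lung for 8 platelet markers, of which 3 were higher. They were 12.99 to 166 CPM in metastases against 6.42 to 774 CPM in normal lung for 12 lung epithelial markers, of which 1 was lower and Aqp5 was at 0 in all libraries. They were 12.6 to 96.3 CPM in metastases against 11.8 to 68.5 CPM in normal lung for 10 mural cell markers, of which 1 was lower. Of 20 proliferation genes 18 were higher, with sums of 2752 to 5467 CPM in metastases against 91.8 to 254 CPM in normal lung. The sums of the pan-endothelial, macrophage and leukocyte, fibroblast and proliferation lists did not overlap between metastases and normal lung, while those of the platelet, mammary epithelial, lung epithelial and mural lists overlapped. The part of these lists in the transporter differences was not tested. In bulk RNA, fewer cells of a type and less RNA per cell cannot be told apart.

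The comparison asks which amino acid carriers differ in transcript level between cells of this gate in metastases and in normal lung. Of the 42 genes, 19 had too few counts to be tested. Of the 23 tested, 10 were higher in metastases, 2 were lower and 11 did not pass. A gene was called where the adjusted p of edgeR's quasi-likelihood test, over all 11823 tested genes, was under 0.05. Over those 11823 genes, 12.0% were called higher, 8.22% lower and 20.2% in either direction. The median log2 fold change was 1.95 over the 23 tested transporter genes and 0.06 over all tested genes. Of the tested genes, those that rose lay in SLC1 (3 of 4), SLC7 (5 of 8) and SLC38 (2 of 6). Those that fell lay in SLC1 (1 of 4) and SLC43 (1 of 2). No gene of SLC3 or SLC36 passed, with 1 and 2 tested. The 10 increases ranged from 3.87-fold to 169.9-fold. In 9 of the 23 tested genes every metastasis library lay above every normal library, and in 1 every metastasis library lay below. Over all tested genes the shares were 8.50% and 6.17%.

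**Figure D1:**
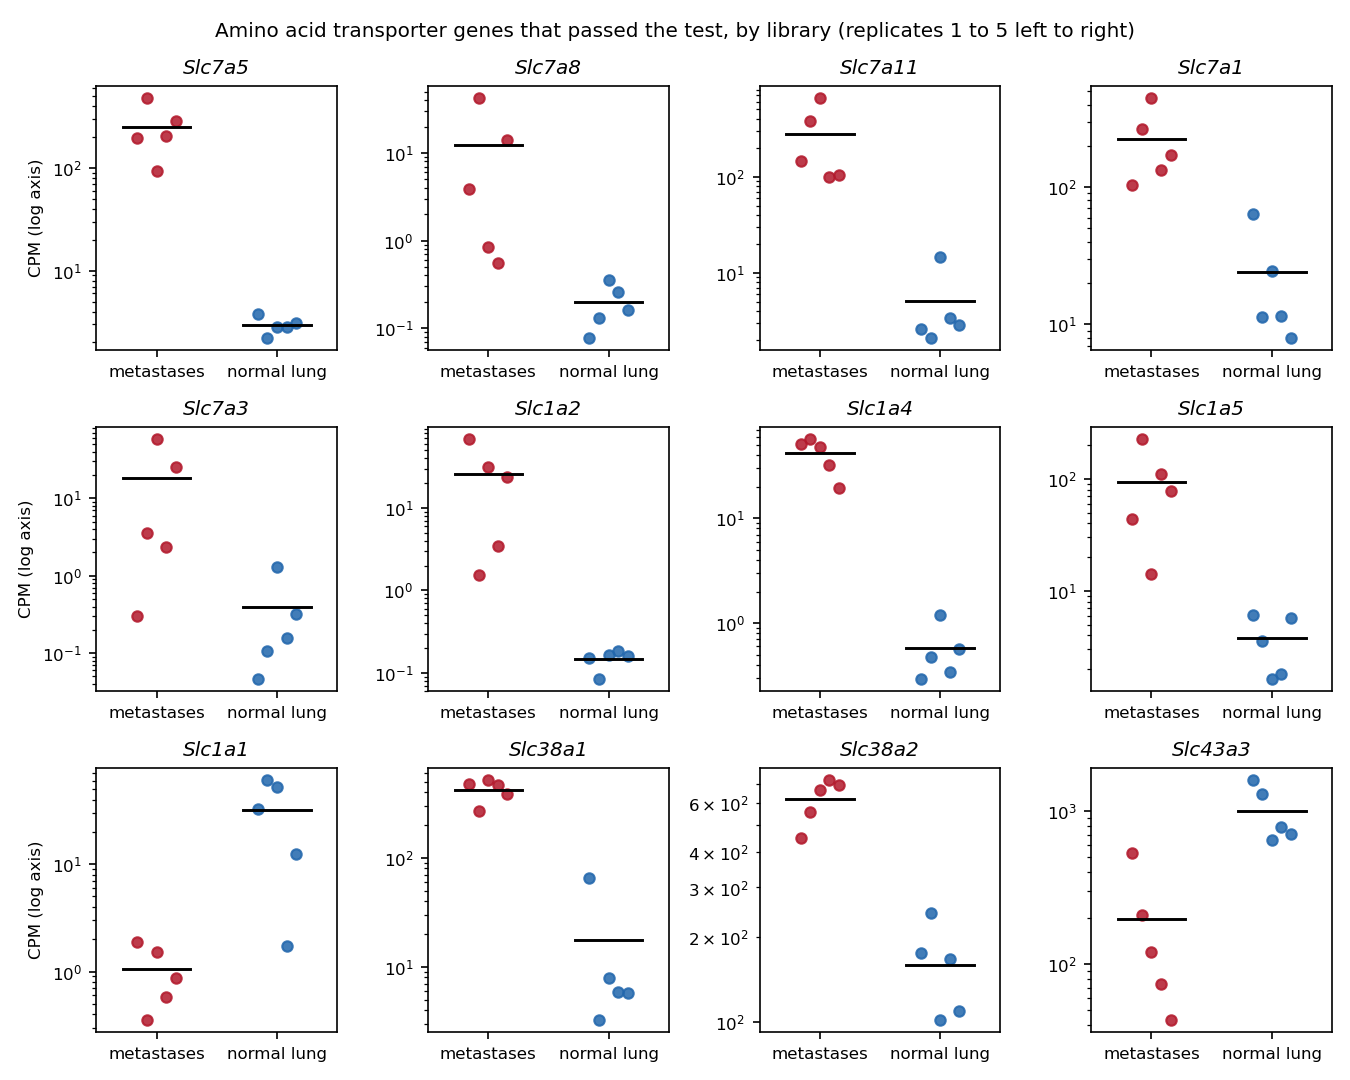
CPM of the 12 amino acid transporter genes that passed the test, on log axes, with 1 point per library (replicates 1 to 5 from left to right) and a bar at the group mean. Metastases and normal lung do not overlap in 10 of the 12 genes and overlap in Slc7a3 and Slc1a1.

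Among the light chains, Slc7a5 showed the most precisely measured change. Its protein, LAT1, exchanges large neutral amino acids such as leucine for intracellular glutamine. Slc7a5 (chromosome 8, 121881150 to 121907694, minus strand, GRCm38) had 196, 482, 94.5, 205 and 289 CPM in metastasis replicates 1 to 5, against 3.75, 2.19, 2.86, 2.83 and 3.12 CPM in normal lung replicates 1 to 5. The lowest metastasis library, replicate 3, was far above the highest normal library, replicate 1. The increase was 85.7-fold (log2 fold change 6.42 ± 0.59 SE, edgeR adjusted p = 5.35e-08).

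Slc7a11 encodes xCT, the light chain that imports cystine in exchange for glutamate and so supplies cysteine for glutathione. The gene (chromosome 3, 49892526 to 50443614, minus strand) had 145, 377, 657, 99.6 and 104 CPM in metastasis replicates 1 to 5, against 2.64, 2.10, 14.6, 3.38 and 2.88 CPM in normal lung replicates 1 to 5. Replicate 3 was the highest library of each group, and the groups did not overlap. The increase was 54.0-fold (5.75 ± 0.74 SE, edgeR adjusted p = 6.62e-06).

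Slc7a8 encodes LAT2, another exchanger of neutral amino acids. It was scarce, at 3.88, 42.4, 0.840, 0.549 and 14.0 CPM in metastases against 0.0763, 0.131, 0.352, 0.260 and 0.161 CPM in normal lung. Metastasis replicates 2 and 5 were the high libraries, while replicates 3 and 4 lay just above normal lung. The gene rose 62.5-fold (5.97 ± 1.53 SE, edgeR adjusted p = 0.00708). The call was lost in libraries 1 and 2 alone (log2 fold change 7.79, adjusted p = 0.0665) and in libraries 3 to 5 alone (4.29, 0.123). These subsets hold 2 and 3 libraries per group. Over all tested genes 487 and 1108 were called higher in them, against 1420 in the full set.

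The remaining tested light chains, both y+L carriers that exchange cationic for neutral amino acids, did not pass. Slc7a6 had 43.8, 25.5, 4.70, 13.9 and 12.6 CPM in metastases against 12.2, 0.226, 0.211, 0.312 and 5.95 CPM in normal lung, where replicates 1 and 5 reached into the metastasis range (2.41 ± 1.21 SE, adjusted p = 0.175). Slc7a7 had 0.843, 20.9, 0.395, 19.4 and 2.35 CPM in metastases against 15.8, 14.1, 15.8, 7.51 and 33.5 CPM in normal lung. Metastasis replicates 2 and 4 lay inside the normal range and the other 3 below it (log2 fold change -0.98 ± 1.07 SE, adjusted p = 0.585). Exons of Slc7a7 overlap those of Oxa1l on the other strand, and whether read strand was used in counting is not given in the sources used here.

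The heavy chain Slc3a2, known as 4F2hc or CD98, partners all of these light chains. Slc3a2 (chromosome 19, 8706882 to 8723369, minus strand) had 336, 132, 279, 92.2 and 132 CPM in metastases against 193, 193, 108, 122 and 124 CPM in normal lung. Metastasis replicates 1 and 3 exceeded every normal library, replicate 4 lay below every one, and the groups overlapped. The difference did not pass (0.39 ± 0.44 SE, edgeR adjusted p = 0.593). Scaled to the pan-endothelial genes it did (2.72, adjusted p = 0.000828), close to the median of all tested genes on that scale, 2.62. There 6532 of all 11823 tested genes were called higher. The second heavy chain, Slc3a1, partner of Slc7a9, was too scarce to test, with 0 to 9.08 CPM in metastases and 0 to 1.48 CPM in normal lung.

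**Figure D2:**
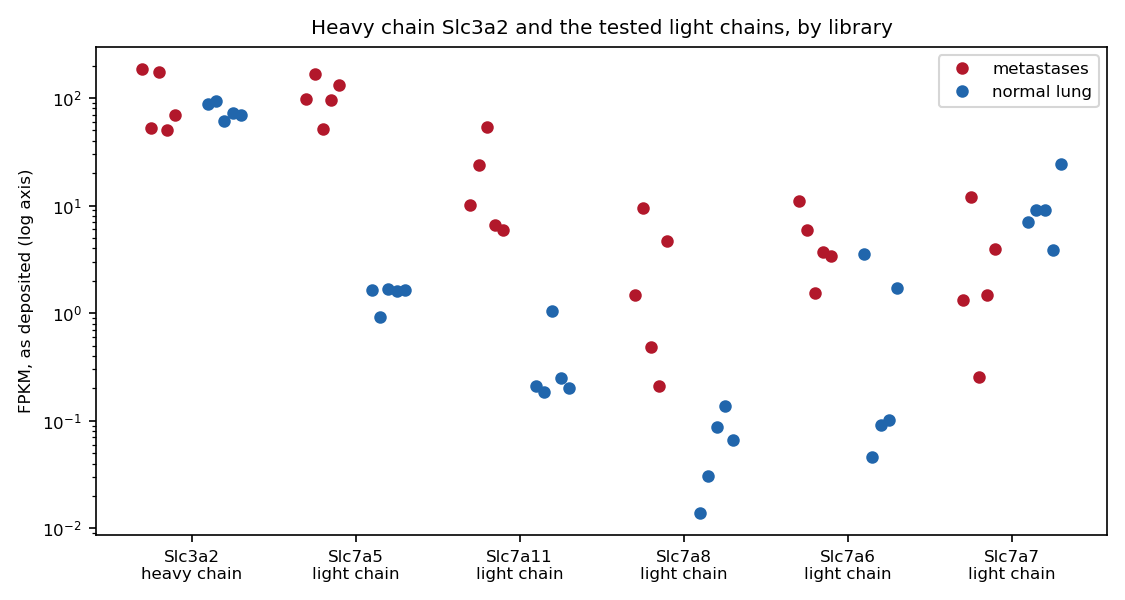
FPKM, as deposited, of the heavy chain Slc3a2 and its 5 tested light chains in each library, on a log axis, with metastases left of normal lung for each gene. Slc3a2 overlaps between the groups, while Slc7a5, Slc7a11 and Slc7a8 are higher in all metastasis libraries.

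Per transcript length, Slc7a5 was at 109 ± 43.3 FPKM in metastases and 1.5 ± 0.327 FPKM in normal lung, and Slc3a2 at 106 ± 66.9 FPKM in metastases and 76.7 ± 13.3 FPKM in normal lung (SD, n = 5 each). The FPKM of Slc7a5 divided by that of Slc3a2 was 0.524, 3.14, 0.296, 1.90 and 1.90 in metastasis replicates 1 to 5. In normal lung replicates 1 to 5 this ratio was 0.0189, 0.00988, 0.0275, 0.0223 and 0.0237. The light chain transcript thus exceeded that of the heavy chain in metastasis replicates 2, 4 and 5 and lay far below it in all normal libraries. The ratio of Slc7a11 to Slc3a2 was 0.206 ± 0.169 in metastases and 0.00557 ± 0.00651 in normal lung, and that of Slc7a7 was 0.0646 ± 0.0941 in metastases and 0.146 ± 0.119 in normal lung (SD, n = 5 each). For Slc7a7 the FPKM and counts differ: metastasis replicates 2 and 4 had 20.9 and 19.4 CPM but 12.1 and 1.47 FPKM.

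3 members of the cationic branch were tested, and they carry arginine, lysine and ornithine without a heavy chain. Slc7a1, which encodes CAT1, had 104, 266, 446, 133 and 171 CPM in metastases against 64.3, 11.3, 24.6, 11.5 and 7.91 CPM in normal lung. Normal replicate 1 stood above the other normal libraries but below all metastases. The gene rose 9.37-fold (3.23 ± 0.62 SE, edgeR adjusted p = 0.000658), and in libraries 1 and 2 alone the change was 2.32 (adjusted p = 0.136). Slc7a3, which encodes CAT3, had 0.303, 3.60, 58.4, 2.37 and 25.7 CPM in metastases against 0.0458, 0.107, 1.31, 0.156 and 0.323 CPM in normal lung. Metastasis replicate 1 lay within the normal range and replicate 3 was the highest. Slc7a3 rose (5.54 ± 1.51 SE, adjusted p = 0.0108), but without metastasis replicate 3 the adjusted p was 0.0584 and in libraries 1 and 2 alone 0.370. Slc7a2, which encodes CAT2, had 1.38, 34.2, 251, 66.8 and 52.0 CPM in metastases against 0.534, 0.548, 30.2, 0.857 and 30.5 CPM in normal lung. Normal replicates 3 and 5 overlapped the metastases, and the change did not pass (2.69 ± 1.19 SE, adjusted p = 0.120). Without metastasis replicate 1 it did (adjusted p = 0.0491).

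In SLC1, the exchangers of small neutral amino acids rose. Slc1a5 (chromosome 7, 16781340 to 16798274, plus strand) encodes ASCT2, a sodium-dependent exchanger of glutamine and other neutral amino acids. It had 43.5, 227, 14.0, 110.1 and 77.2 CPM in metastases against 6.12, 3.60, 1.62, 1.82 and 5.73 CPM in normal lung. Replicate 3 was the lowest metastasis library and still exceeded all normal libraries. The increase was 24.9-fold (4.64 ± 0.82 SE, edgeR adjusted p = 0.000288). Slc1a4, whose protein ASCT1 exchanges serine, alanine and cysteine (chromosome 11, 20302180 to 20332713, minus strand), had 50.8, 57.2, 48.0, 32.6 and 19.6 CPM in metastases against 0.290, 0.476, 1.20, 0.338 and 0.565 CPM in normal lung. No normal library came near the metastases. Slc1a4 rose 72.5-fold (6.18 ± 1.00 SE, adjusted p = 0.000112).

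The glutamate and aspartate carriers of SLC1 moved in opposite directions. Slc1a2, which encodes GLT-1, the main glutamate carrier of astrocytes, had 68.4, 1.52, 30.9, 3.50 and 23.6 CPM in metastases against 0.153, 0.0833, 0.164, 0.182 and 0.161 CPM in normal lung. Metastasis replicates 2 and 4 were low, yet above the normal libraries. Slc1a2 rose (7.41 ± 1.34 SE, edgeR adjusted p = 0.000361). Slc1a1, which encodes EAAC1, a carrier of glutamate and cysteine (chromosome 19, 28835049 to 28913960, plus strand), had 1.89, 0.351, 1.53, 0.578 and 0.878 CPM in metastases against 32.8, 60.8, 52.6, 1.71 and 12.3 CPM in normal lung. Normal replicate 4 fell below metastasis replicate 1, so the groups overlapped there. Slc1a1 fell (log2 fold change -4.94 ± 1.12 SE, adjusted p = 0.00271), a call lost when libraries were scaled to the pan-endothelial genes (-2.49, adjusted p = 0.106), in libraries 1 and 2 alone (-5.38, adjusted p = 0.0732) and in libraries 3 to 5 alone (-4.50, adjusted p = 0.0545). Its exons overlap those of 4430402I18Rik on the other strand. The other SLC1 genes were not tested, and Slc1a3 and Slc1a6 had no count in any library.

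In SLC38, Slc38a1 and Slc38a2, which carry glutamine across the plasma membrane, rose. Slc38a1 (SNAT1; chromosome 15, 96571418 to 96642913, minus strand) had 477, 269, 518, 466 and 389 CPM in metastases against 65.7, 3.21, 7.92, 5.82 and 5.70 CPM in normal lung. Normal replicate 1 stood above the other normal libraries, and all lay below the metastases. The increase was 24.0-fold (4.58 ± 0.71 SE, edgeR adjusted p = 6.82e-05). Slc38a2 (SNAT2; chromosome 15, 96687392 to 96699730, minus strand), a carrier known to be induced when amino acids are scarce, had 448, 558, 666, 722 and 692 CPM in metastases against 175, 243, 101, 167 and 109.7 CPM in normal lung. It was well expressed in both groups, which did not overlap. Slc38a2 rose 3.87-fold (1.95 ± 0.37 SE, adjusted p = 0.000616), and the change was 1.28 in libraries 1 and 2 alone (adjusted p = 0.240).

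Slc38a9, a lysosomal carrier that signals arginine to the growth kinase complex mTORC1, had 5.02, 56.8, 146, 1.45 and 30.8 CPM in metastases against 78.9, 45.4, 48.8, 92.1 and 59.1 CPM in normal lung. Metastases spanned both sides of the normal range (-0.43 ± 0.80 SE, adjusted p = 0.759). The other tested SLC38 genes, Slc38a6, Slc38a7 and Slc38a10, had log2 fold changes of 0.35, -0.03 and 0.32 (adjusted p = 0.788, 0.990 and 0.864). In SLC36, Slc36a4 had 93.6, 66.0, 2.08, 7.89 and 14.6 CPM in metastases against 45.4, 25.9, 31.2, 7.77 and 52.9 CPM in normal lung, with overlap (0.17 ± 0.85 SE, adjusted p = 0.917). Slc36a1, a lysosomal proton-coupled carrier, also overlapped (-1.62 ± 1.04 SE, adjusted p = 0.304). None of the lysosomal members tested, Slc36a1, Slc38a7 and Slc38a9, thus passed the test.

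Slc43a3 was the member with the highest level in normal lung. Its protein is now known as a carrier of purine nucleobases rather than amino acids. Slc43a3 (chromosome 2, 84936579 to 84958509, plus strand) had 533, 209, 119.6, 73.6 and 42.7 CPM in metastases against 1595, 1289, 648, 784 and 702 CPM in normal lung. Replicate 1 was the highest library of each group, and no library overlapped. The decrease was 5.13-fold (log2 fold change -2.36 ± 0.53 SE, edgeR adjusted p = 0.00251). Scaled to the pan-endothelial genes it was -0.43 (adjusted p = 0.518), and in libraries 1 and 2 alone -1.94 (adjusted p = 0.0546). Slc43a2, the leucine carrier LAT4, did not pass (0.80 ± 1.00 SE, adjusted p = 0.640).

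**Figure D3:**
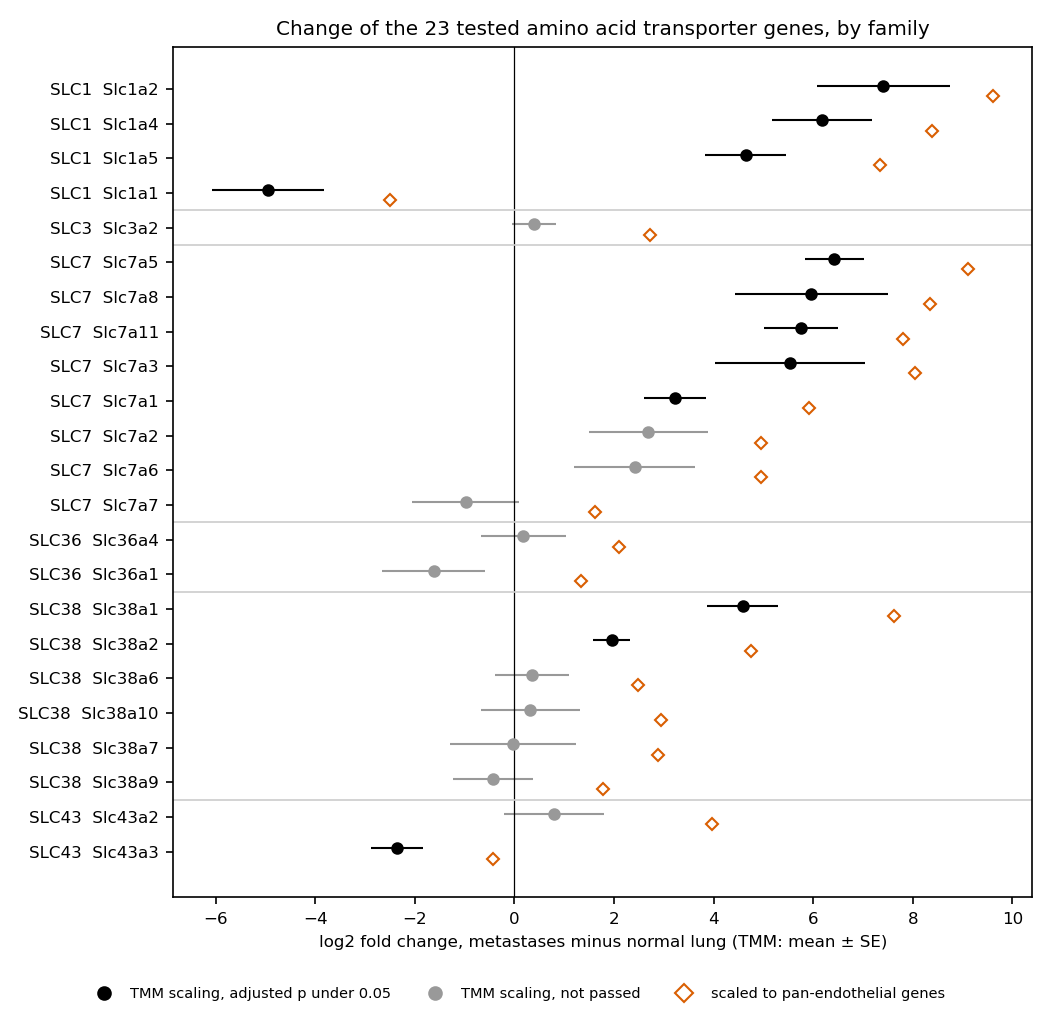
Log2 fold changes, metastases minus normal lung, of the 23 tested amino acid transporter genes by family. Circles with bars give the estimate ± SE on TMM-scaled libraries, black where the adjusted p was under 0.05, and open diamonds give the estimate after scaling to the pan-endothelial genes. On the second scale the values of Slc1a1 and Slc43a3 alone lie below 0.

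Which genes were called depended on the scaling. Scaling to the summed counts of the pan-endothelial genes moved the median of all tested genes by 2.56 on the log2 scale. On that scale 16 transporter genes were called higher and 0 lower, against 6532 higher and 21 lower of all 11823 tested genes. The 10 that had risen on TMM-scaled libraries were among the 16. The 6 added were Slc3a2, Slc7a2, Slc7a6, Slc38a6, Slc38a10 and Slc43a2. On TMM-scaled libraries without metastasis replicates 4 and 5, which had the lowest pan-endothelial sums, 10 genes were higher and 2 lower, and they were the same 12.

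Leaving out single libraries moved the size of several changes, on the log2 scale. Without metastasis replicate 1, Slc1a2 was at 6.61 and Slc43a3 at -3.20. Without metastasis replicate 2, Slc1a5 was at 4.02 and Slc7a8 at 4.60. Without metastasis replicate 3, Slc7a11 was at 5.11 and Slc7a3 at 4.33. All of these but Slc7a3 still passed the test. Without normal lung replicate 1, Slc38a1 was at 6.20 and Slc7a1 at 3.99, and without normal lung replicate 3, Slc7a11 was at 6.63 and Slc7a3 at 6.81.

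Within the metastases the called genes did not share 1 order of libraries. Slc7a5 and Slc1a5 were highest in replicate 2 and lowest in replicate 3. Slc7a1, Slc7a3, Slc7a11 and Slc38a1 were highest in replicate 3, as was Slc7a2. Slc1a2 was highest in replicate 1 and lowest in replicate 2, where it was 44.9 times lower.

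The make-up of each family was compared per transcript length. SLC7 summed to 199.9 ± 62.9 FPKM in metastases and 18.5 ± 9.08 FPKM in normal lung, and SLC1 to 73.8 ± 36.7 FPKM in metastases and 11.2 ± 6.48 FPKM in normal lung (SD, n = 5 each). SLC38 summed to 190.8 ± 60.7 FPKM in metastases and 53.4 ± 17.9 FPKM in normal lung, with no overlap between groups in any of these 3 families. SLC3 summed to 107 ± 66.5 FPKM in metastases and 83.4 ± 17.8 FPKM in normal lung, where Slc3a1 was listed at 27.6 FPKM in replicate 4 with 2 counts and at 6.19 FPKM in replicate 2. SLC36 summed to 23.4 ± 22.6 FPKM in metastases and 20.4 ± 6.70 FPKM in normal lung. SLC43 summed to 93.2 ± 100.3 FPKM in metastases and 434 ± 133 FPKM in normal lung. All members together came to 688 ± 170 FPKM in metastases and 621 ± 163 FPKM in normal lung. Without Slc43a3 they came to 598 ± 123 FPKM in metastases and 189 ± 34.9 FPKM in normal lung. No test was made on these sums, since they follow the members already described.

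By mean share the leading gene differed between groups in SLC7 and SLC1 and not in the other families. Slc7a5 made up 58.3 ± 22.2% of SLC7 FPKM in metastases and 9.71 ± 5.43% in normal lung, while Slc7a7 made up 1.77 ± 1.77% in metastases and 55.7 ± 20.0% in normal lung (SD, n = 5 each). The shares of Slc7a7 are uncertain, since its FPKM and counts differ. Metastasis replicates 2 and 4 had 20.9 and 19.4 CPM but 12.1 and 1.47 FPKM, and its exons overlap those of Oxa1l. In SLC1, Slc1a5 made up 70.5 ± 22.8% in metastases and 36.3 ± 30.1% in normal lung, and Slc1a1 0.605 ± 0.571% in metastases and 60.5 ± 32.2% in normal lung. Single libraries departed from these means. In metastasis replicate 3, Slc7a1 led SLC7 with 91.0 FPKM and Slc1a4 led SLC1 with 20.3 FPKM, and in normal lung replicates 4 and 5, Slc1a5 led SLC1 with 1.80 and 4.63 FPKM. Slc7a1 also led SLC7 in normal lung replicate 1, with 7.26 FPKM. In SLC38, Slc38a2 led in both groups by mean share, with 52.2 ± 6.77% in metastases and 52.8 ± 14.8% in normal lung. Slc38a1 led SLC38 in metastasis replicate 1 (66.5 FPKM), and Slc38a6 did in normal lung replicate 5 (25.3 FPKM). Slc36a1 led SLC36 in metastasis replicate 3 (5.52 FPKM) and normal lung replicate 4 (6.19 FPKM). Slc43a3 held 3.43 to 31.2% of the FPKM of all 42 genes in metastases and 64.4 to 72.7% in normal lung.

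**Figure D4:**
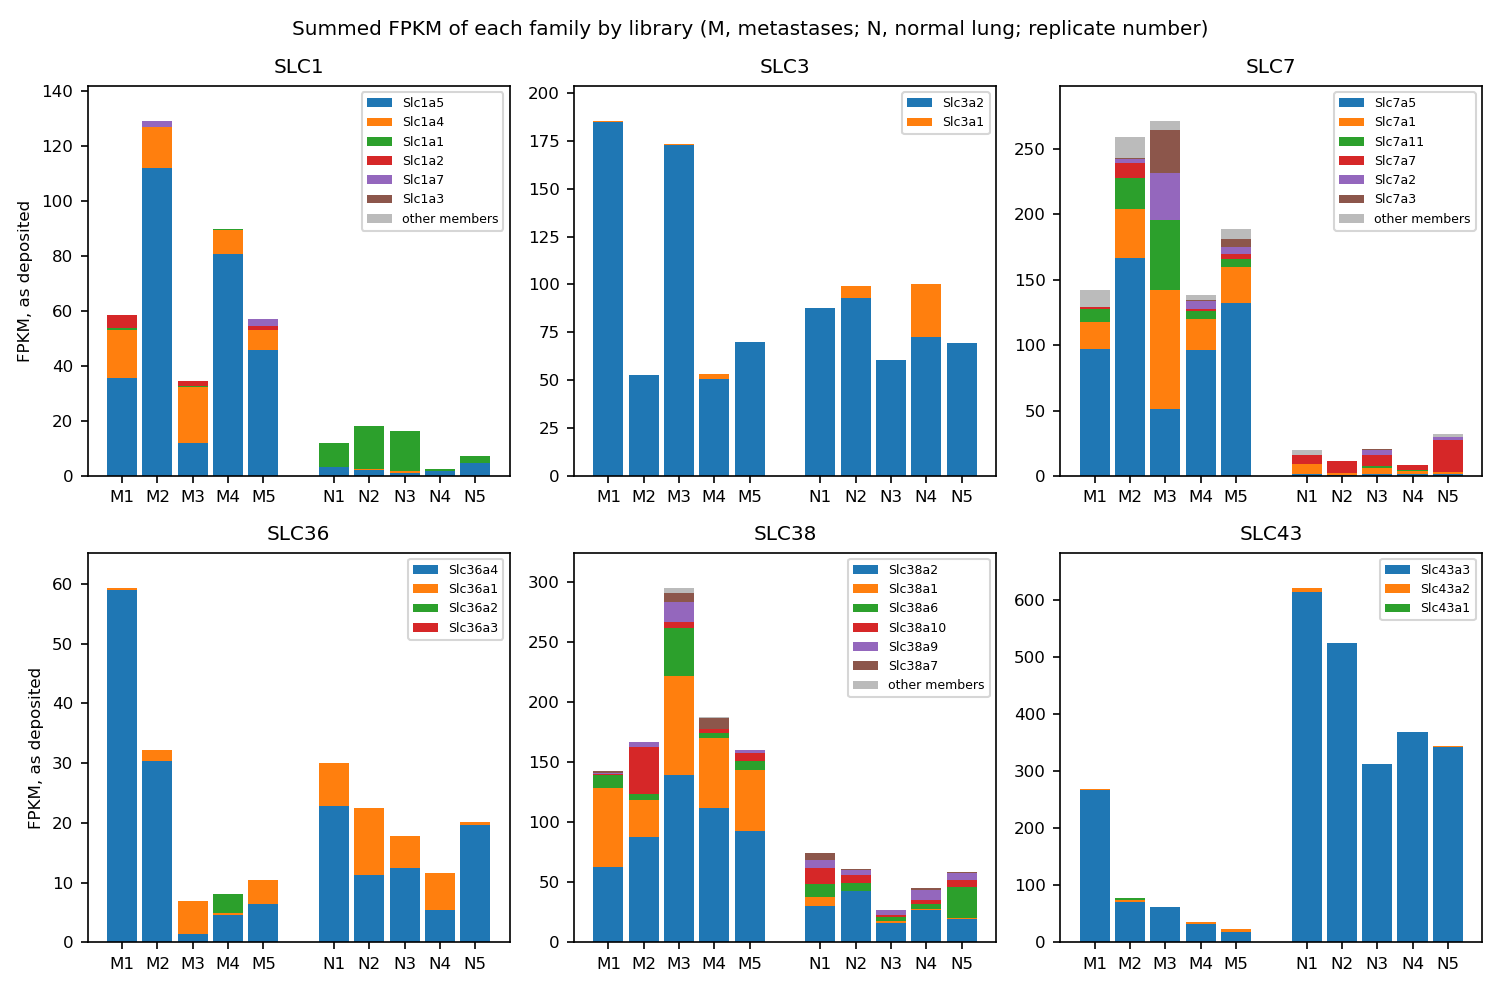
Summed FPKM of each transporter family in every library, as deposited, with the members stacked, metastases (M1 to M5) left of normal lung (N1 to N5), and a separate vertical scale for each family. SLC7 and SLC1 are higher in all metastasis libraries and led there by Slc7a5 and Slc1a5 except in replicate 3, and SLC43 is mostly Slc43a3 in both groups.

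Of the 19 genes not tested, 9 had no count in any library, where 3 counts would have given 0.0357 to 0.148 CPM. A further 3, Slc7a4, Slc7a9 and Slc7a15, stayed below 1 CPM. The other 7 exceeded 1 CPM in some library but not in enough to be tested: Slc1a7, Slc3a1, Slc7a14, Slc36a2, Slc38a3, Slc38a4 and Slc43a1. The highest was Slc1a7 in metastasis replicate 2, at 28.8 CPM. For Slc3a1, whose exons overlap those of Prepl, and for Slc7a10, which overlaps Lrp3, the FPKM table and the counts differ. The table lists 4.59 FPKM for Slc7a10 in metastasis replicate 3, where its count was 0.

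The amino acid response element is bound by ATF4, the transcription factor induced by amino acid shortage, and several carriers are among its known targets. Its core was searched as TGATGNAA on both strands, in windows from 250 bases before to 50 bases after the transcription start (RefSeq, GRCm38.p6). At least 1 window was listed for 31 of the 42 genes. Those without a window, and so not searched, included Slc1a5, Slc7a3, Slc7a5 and Slc38a1, which rose, and Slc43a3, which fell. The core was found in Slc1a4, Slc7a7 and Slc7a11, 3 of the 31 genes, and in 3.97% of 32851 promoters of all genes. That share counts single windows, while some members, Slc7a7 among them, had several, so the units differ. The windows of Slc7a11 and Slc1a4 are shown because these genes rose, with each match in capitals, 5′ to 3′ on the gene's own minus strand. In Slc7a11 (chr3:50443564-50443863) a forward and a reverse match begin 66 and 47 bases before the start. In Slc1a4 (chr11:20332664-20332963) a reverse match begins 4 bases before it.
Slc7a11: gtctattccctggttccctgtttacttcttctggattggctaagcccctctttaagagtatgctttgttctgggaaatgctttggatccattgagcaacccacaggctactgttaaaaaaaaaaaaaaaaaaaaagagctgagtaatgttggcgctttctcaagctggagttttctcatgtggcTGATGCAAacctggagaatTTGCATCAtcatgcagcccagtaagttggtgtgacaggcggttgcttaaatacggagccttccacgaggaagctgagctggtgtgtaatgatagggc
Slc1a4: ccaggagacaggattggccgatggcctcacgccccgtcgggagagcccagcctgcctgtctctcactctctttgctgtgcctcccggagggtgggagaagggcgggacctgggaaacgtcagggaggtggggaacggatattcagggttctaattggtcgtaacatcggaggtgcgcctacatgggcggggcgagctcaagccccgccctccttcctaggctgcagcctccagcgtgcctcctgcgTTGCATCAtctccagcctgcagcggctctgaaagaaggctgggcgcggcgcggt
The core of the antioxidant response element, TGACNNNGC, was found in windows of Slc7a1, Slc7a6, Slc36a1, Slc38a2 and Slc43a1, 5 of the 31 genes. It was found in 12.4% of all promoters, again counted per window. These matches are descriptions of letters, not of binding.

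Lists of genes that use, make or sense amino acids were read from the same fit, in which 12.0% of all tested genes were called higher and 8.22% lower. In serine, glycine and one-carbon metabolism 7 of 12 genes rose and 0 fell (median log2 fold change 4.28 over 11 tested). Psat1, an aminotransferase of serine synthesis, had 326 ± 118 CPM in metastases and 3.93 ± 1.25 CPM in normal lung (SD, n = 5 each; 6.38 ± 0.53 SE, edgeR adjusted p = 1.05e-08), and Phgdh, the first enzyme of that pathway, also rose (5.98 ± 1.74 SE, adjusted p = 0.0162). Phgdh was scarce, at 0.890 to 19.6 CPM in metastases and 0 to 0.520 CPM in normal lung. In branched-chain amino acid and tryptophan catabolism 2 of 11 rose, Bcat1 and Dbt (median 0.94 over 6 tested). Bcat1, the cytosolic aminotransferase of leucine, isoleucine and valine, had 305 ± 152 CPM in metastases and 2.94 ± 0.641 CPM in normal lung (6.70 ± 0.55 SE, adjusted p = 8.83e-09).

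In arginine and polyamine metabolism 4 of 14 genes rose, Nos1, Arg1, Odc1 and Oat, and 0 fell (median 1.69 over 12 tested). Nos1, the neuronal nitric oxide synthase, rose by 6.94 ± 1.36 SE on the log2 scale (adjusted p = 0.000763), and Arg1, which splits arginine into ornithine and urea, by 3.68 ± 0.94 SE (adjusted p = 0.00684). Nos1 was scarce in normal lung, at 0.0703 to 0.323 CPM. The groups overlapped in Arg1, with 8.16 CPM in metastasis replicate 4 and 9.09 and 9.58 CPM in normal lung replicates 4 and 5. In glutamine and glutathione metabolism 4 of 14 rose, Gpt2 and Gsr among them, and 0 fell (median 1.09 over 11 tested). Gpt2, a mitochondrial alanine aminotransferase, rose by 4.34 ± 1.12 SE (adjusted p = 0.00749), and Gsr, the glutathione reductase, by 2.80 ± 0.54 SE (adjusted p = 0.000654).

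Of 17 genes of the amino acid response 3 rose, Nupr1, Eif4ebp1 and Asns, and 0 fell (median 1.45 over 13 tested). Nupr1, a stress-induced chromatin protein, rose by 6.50 ± 1.51 SE (adjusted p = 0.00319), and Eif4ebp1, an inhibitor of translation, by 2.89 ± 0.80 SE (adjusted p = 0.0124). Nupr1 was scarce in normal lung, at 0.0234 to 0.364 CPM, against 0.741 to 54.0 CPM in metastases. Atf4 had 248 ± 79.7 CPM in metastases and 129 ± 41.1 CPM in normal lung and did not pass (SD, n = 5 each; 0.95 ± 0.41 SE, adjusted p = 0.109). Of 29 genes of mTORC1 amino acid sensing 2 rose, Rragd and Sec13, and 1 fell, Tsc1, with a median of 0.10 over 26 tested, a smaller share higher than over all tested genes. Rragd, a Rag GTPase, rose by 5.10 ± 1.61 SE (adjusted p = 0.0261), and Tsc1, an inhibitor of mTORC1, fell (-2.39 ± 0.79 SE, adjusted p = 0.0349). Of 26 amino acid carriers from other families 2 rose, the mitochondrial aspartate and glutamate carrier Slc25a13 (4.02 ± 1.11 SE, adjusted p = 0.0118) and the taurine carrier Slc6a6 (1.51 ± 0.47 SE, adjusted p = 0.0243), with a median of 0.46 over 16 tested. In both genes the groups overlapped.

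**Figure D5:**
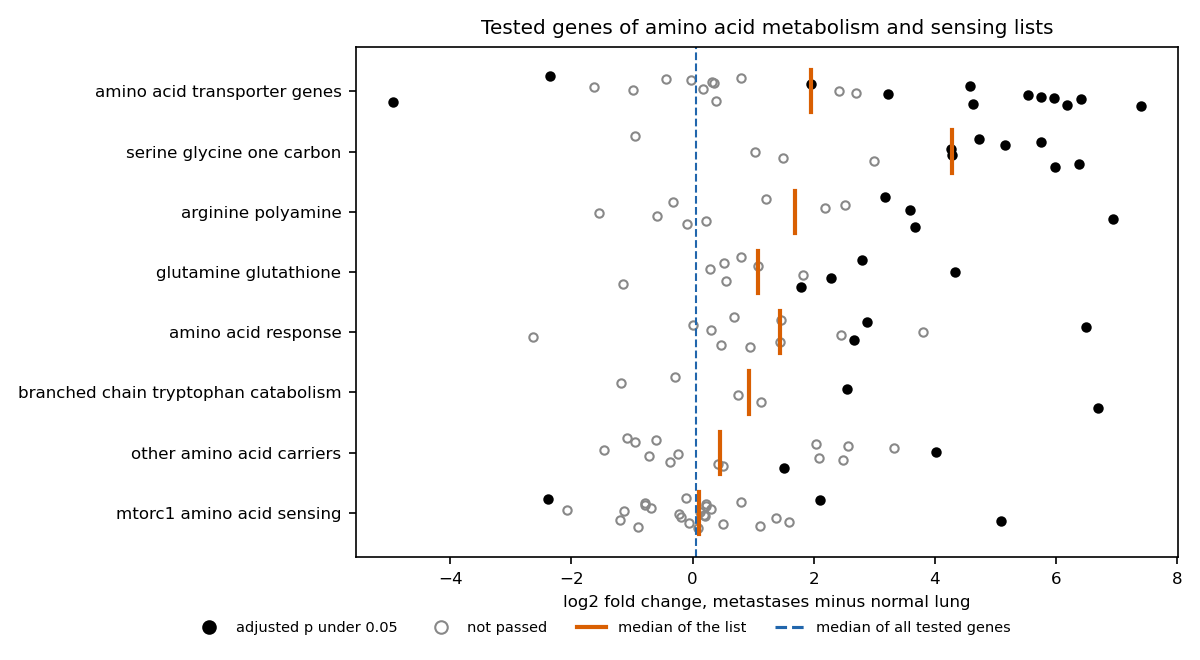
Log2 fold changes, metastases minus normal lung, of the tested genes in each list, with 1 point per gene, filled where the adjusted p was under 0.05. Short bars mark the median of each list, 4.28 for serine, glycine and one-carbon metabolism and 0.10 for mTORC1 sensing, and the dashed line marks the median of all tested genes, 0.06.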

How the data were processed

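Total RNA of sorted cells was amplified (Ovation RNA-Seq System V2) and sequenced as paired 100 bp reads, per the labels' protocols. The submitters' processing notes list HTSeq 0.6.1, Cufflinks 2.2.1, TopHat2 2.0.13 and DESeq2 1.6.3 with the builds mm10 and GRCm38. For the annotation and read strand, the setting is not given in the sources used here. The authors deposited raw counts per gene and FPKM per gene, the latter normalized by length and depth. Reads assigned to no feature in the count files were left out. They made up 71.8 to 73.7% in metastases, except 57.9% in replicate 2, and 55.4 to 64.7% in normal lung.

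Counts were filtered with filterByExpr at its defaults, scaled by TMM and compared with edgeR 4.0.16 in R 4.3.3 (quasi-likelihood F test, two-sided, no covariate, Benjamini-Hochberg over 11823 genes). SE is the absolute log2 fold change over the root of F. The common biological coefficient of variation was 1.01. Alternatives were DESeq2 1.42.0, other scalings, filters and thresholds, limma 3.58.1 on FPKM with pseudocounts of 1 and 0.1, subsets of libraries and a replicate block. Each FPKM column correlated best with its own sample's counts (10 of 10). Positions are from GENCODE M21 and promoters from RefSeq.

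The members and lists were chosen with earlier results of these data known. Named were all called members, those with a mean of at least 50 CPM in a group, the highest member of each family, both heavy chains, and up to 2 called genes each way with the largest change per metabolic list. Others complete a count or were chosen after their values were seen. A gene of the metabolic lists is not reported here.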

Additional observations from a re-analysis of the deposited data

Results flagged for a closer look

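In the 23 tested transporter genes, 46 groups of 5 libraries were searched for a library far from the other 4 (Dixon's 95% critical value, 0.71, on log2 levels), and 5 were found, where chance flags about 1 in 20 groups. Slc43a2 was at 1.19 CPM in metastasis replicate 3, against 22.4 to 31.3 CPM in the other metastases. Slc7a11 was at 14.6 CPM in normal lung replicate 3, against 2.10 to 3.38 CPM in the other normal libraries. Slc38a1 was at 65.7 CPM in normal lung replicate 1, against 3.21 to 7.92 CPM in the others. Slc36a1 was at 1.16 CPM in normal lung replicate 5, against 18.7 to 49.4 CPM in the others. Slc1a2 was at 0.0833 CPM in normal lung replicate 2, against 0.153 to 0.182 CPM in the others. That flag rests on 7 counts there, against 6 to 10 counts in the others.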

How the results depend on the processing

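No called value reversed direction under any alternative run. The counts of 10 genes higher and 2 lower were the same 12 genes with DESeq2, RLE scaling and library totals. Scaled to the pan-endothelial genes they were 16 higher and 0 lower, where 6532 of all 11823 tested genes were called higher and 21 lower. In libraries 1 and 2 alone, with 2 libraries per group, they were 6 higher and 0 lower. In libraries 3 to 5 alone they were 10 higher and 1 lower, with Slc3a1 added and Slc7a8 and Slc1a1 lost. With limma on FPKM 7 genes were higher and 1 lower at a pseudocount of 1, and 8 higher and 1 lower at 0.1, since Slc1a1, Slc1a2, Slc7a3 and Slc7a8 did not pass the filter on low FPKM. Without that filter 7 were higher and 2 lower, and the calls of Slc1a2 (1.12, adjusted p = 0.110), Slc7a3 (1.65, 0.258) and Slc7a8 (1.51, 0.113) were lost. Leaving out 1 library at a time gave 9 to 11 higher and 2 lower. Same-numbered libraries correlated at -0.00808 to 0.177 in their deviations from the group means over all tested genes. The closest normal library had the same number for metastasis replicates 2 and 4 only. Such correlations cannot tell whether libraries of the same replicate number were prepared together. With the replicate block 11 genes were higher and 2 lower, with Slc7a2 and Slc7a6 added and Slc7a8 lost (adjusted p = 0.0550). Calls on genes near the detection limit, Slc7a8 and Slc1a2 among them, rest on few counts in normal lung. Each normal library gave 5 to 15 counts for Slc7a8 and 6 to 10 for Slc1a2.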
